A study of Mus musculus with 12 samples.

Results

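Clrn1, which encodes the membrane protein clarin-1, was followed across all 12 libraries of epithelium from the urogenital sinus of mouse embryos. It is 1 of 20308 gene symbols in the deposited table, and it was chosen because its fitted fold change was the lowest of all genes tested when Dnmt1cKO was set against Control. Its levels in these groups are therefore a description and carry no test. The 8 Dnmt1cKO libraries came from C57BL/6J embryos at embryonic day 15.5 that lost Dnmt1 through a Shh Cre driver, which acts in this epithelium. The 4 Control libraries came from wildtype C57BL/6J embryos of the same age. The epithelium was freed from the stroma with trypsin, each harvest gave a lysate pooled from more than 1 embryo, and polyadenylated RNA was sequenced. The deletion is limited to cells in which Shh has driven Cre, so a Dnmt1cKO pool can hold cells that kept the gene.

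Clarin-1 is a small protein that crosses the cell membrane 4 times and belongs to the clarin family with clarin-2 and clarin-3. It is known from the sensory hair cells of the inner ear, where it is needed for the hair bundle and the ribbon synapse, and its loss in humans causes Usher syndrome type 3, which joins deafness with loss of sight. Dnmt1 copies DNA methylation to the new strand at CG pairs after replication, so the comparison asks which transcripts differ once this copying enzyme is deleted. Clrn1 is not a usual marker of the urogenital sinus.

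Depth and makeup differed widely between the libraries. The Dnmt1cKO libraries held 4007498 to 11970876 rounded expected counts, against 7577669, 2915169 and 1613495 in Controls 1 to 3 and 543570 in the library labelled Control 4. Dnmt1, the targeted gene, stood at 22.8 to 97.0 CPM (counts per 1000000 of the library total after TMM scaling, which sets libraries to a common level over most genes) in the Dnmt1cKO libraries and at 114 to 237 CPM in Controls 1 to 3. A single count, or 2.84 CPM, was all that the library labelled Control 4 held of it. For Dnmt1, that library goes against its label. For the germ cell markers, of which 2 of 4 were detected, it stood with Control. Their sum was 174 to 279 CPM in Dnmt1cKO, 0.246, 0.337 and 9.05 CPM in Controls 1 to 3, and 0 in the library labelled Control 4. Summed markers of urogenital sinus epithelium, all 10 of which were detected, stood at 4901 to 8211 CPM in Dnmt1cKO and 3816 to 27261 CPM in Control, and all 9 stromal markers were also found, at 265 to 6230 CPM in Dnmt1cKO and 1274 to 9965 CPM in Control. All 5 markers of endothelium summed to 4.79 to 57.6 CPM in Dnmt1cKO and 8.53 to 142 CPM in Control, and all 6 neural and glial markers to 4.38 to 248 CPM in Dnmt1cKO and 19.9 to 463 CPM in Control. Immune markers, all 5 detected, summed to 8.44 to 54.1 CPM in Dnmt1cKO and 0 to 211 CPM in Control, and all 6 erythroid markers to 10.4 to 1497 CPM in Dnmt1cKO and 429 to 5798 CPM in Control. In each of the erythroid, immune, neural and glial, endothelial and stromal lists the highest of the 12 libraries was Control 3. The epithelial sum of 27261 CPM was that of the library labelled Control 4, and Controls 1 to 3 stood at 3816 to 8397 CPM.

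Clrn1 lies on the minus strand of chromosome 3 (GRCm38, which is mm10), at 58844028 to 58885212 in RefSeq. GENCODE M21 gives 4 transcripts. The longest, Clrn1-202, has 4 exons and 3083 bases, 750 of them coding. Clrn1-203, with 1662 bases, and Clrn1-201, with 1204 bases and a start further upstream, use 2 and 3 exons, and the fourth is a retained-intron transcript of 915 bases with no coding part. The counts are per gene, so the transcripts cannot be told apart. A non-coding gene of RefSeq, Gm40060, overlaps Clrn1 at 58842095 to 58866754 of the same chromosome and has no row in the table.

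Because Dnmt1 acts on CG pairs, the stretch just upstream of the farthest annotated start of Clrn1 is shown with its CG pairs in capitals, 5′ to 3′ on the minus strand, from the RefSeq promoter table (GRCm38.p6, chr3:58885341-58885462).
Clrn1 upstream: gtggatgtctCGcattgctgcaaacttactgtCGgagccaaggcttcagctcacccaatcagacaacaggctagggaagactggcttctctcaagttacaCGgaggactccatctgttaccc
These 122 bases hold 3 CG pairs. The whole window of the table, from 250 bases before to 50 after the RefSeq start (58885163 to 58885462), holds 6, against a median of 7 over 32851 promoter windows of the same length. Of those windows 47.9% hold 6 or fewer and 94.6% hold at least 1. A CG pair reads the same on both strands. Methylation was not measured in these libraries, and the count of CG pairs is a description of the reference sequence.

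The last exon of Clrn1-202 holds a stretch that many other transcripts share. Bases 1863 to 1990 of the transcript, which are 128 bases of the 3′ UTR at 58845121 to 58845248, matched transcripts of 195 other genes over at least 50 bases at 90% identity or more. The match ran in the same direction in 74 of them and in the opposite direction in 121. The best match had 98.15% identity, and the longest covered 121 bases. No other part of the transcript matched more than 1 other gene by this rule. The expected counts of Clrn1 carry the trace of reads that were divided between genes: of the 10 libraries with a value above 0, 9 held a fraction (219.27 in Control 3, for example). Of the 12761 genes tested, 10.2% had fractions in as many libraries. How much of each value came from divided reads cannot be read from the table.

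**Figure D1:**
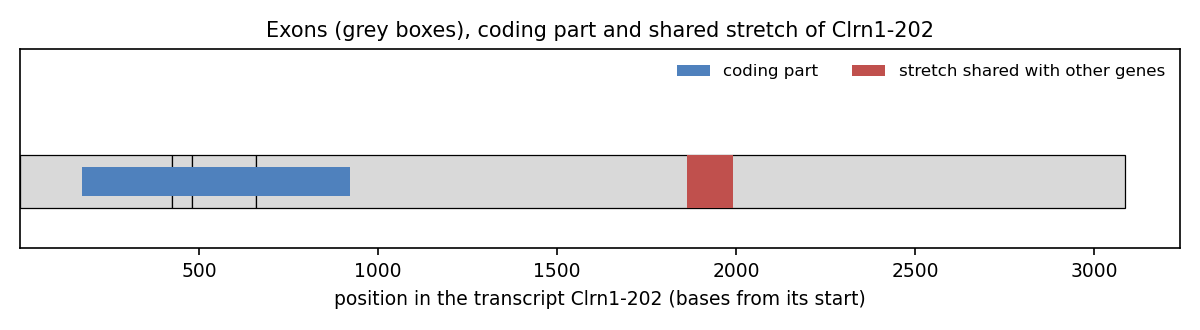
The longest Clrn1 transcript drawn to scale, with position in bases from its start on the horizontal axis. Grey boxes are the 4 exons, the blue bar is the coding part (bases 173 to 922) and the red block is the stretch at bases 1863 to 1990 that matched transcripts of 195 other genes, well outside the coding part.

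Clrn1 was near 0 in every Dnmt1cKO library and was found in every Control library. In Dnmt1cKO 1 to 8 it stood at 0.875, 0, 0.925, 2.167, 0.088, 0.699, 0 and 1.43 CPM, which were 12.17, 0, 11.89, 21.07, 1, 7.19, 0 and 5.02 expected counts. In Controls 1 to 3 it stood at 8.61, 14.8 and 165.1 CPM, and in the library labelled Control 4 at 298.6 CPM, which were 69.79, 43.67, 219.27 and 105.04 expected counts. The groups did not overlap, and the lowest Control library lay 3.97-fold above the highest Dnmt1cKO library. Of all genes tested, 62 (0.486%) showed such a split with Dnmt1cKO below. Since Clrn1 was chosen on this contrast, nothing is read from its place among them.

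The counting intervals of the 2 groups did not meet, and counting error was large within Dnmt1cKO. The exact Poisson 95% interval ran to 3.31 CPM in Dnmt1cKO 4 and to 3.33 CPM in Dnmt1cKO 8, the highest upper bounds of the group, and it started at 6.71 CPM in Control 1. The 2 libraries with no count, Dnmt1cKO 2 and 7, allow up to 0.673 and 0.313 CPM at 3 counts. Dnmt1cKO 4, with an interval from 1.34 CPM, lay above the intervals of Dnmt1cKO 2, 5 and 7. The intervals of the other Dnmt1cKO libraries overlapped with that of Dnmt1cKO 4. In Control, the intervals of Control 1 (6.71 to 10.9 CPM) and Control 2 (10.8 to 19.9 CPM) met, while Control 3 (144 to 188 CPM) and the library labelled Control 4 (244 to 361 CPM) stood apart from them and from each other. These intervals cover counting error only, since reads were not marked by molecule.

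The Control libraries differed more from each other than Control 1 did from the highest Dnmt1cKO library. The highest Control level was 34.7-fold above the lowest, and the levels were higher in the shallower libraries. Of the summed Clrn1 CPM over all 12 libraries, 60.5% lay in the library labelled Control 4 and 33.5% in Control 3. Scaled to the total of the shallowest library, the counts were 0 to 1.30 in the Dnmt1cKO libraries, 5.02 and 8.20 in Controls 1 and 2, 73.8 in Control 3, and 105 in the library labelled Control 4. Control 3 and the library labelled Control 4 also had the fewest genes detected, 9085 and 6740, against 10197 to 13829 in Dnmt1cKO. The part of library makeup in the Clrn1 level was not tested.

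**Figure D2:**
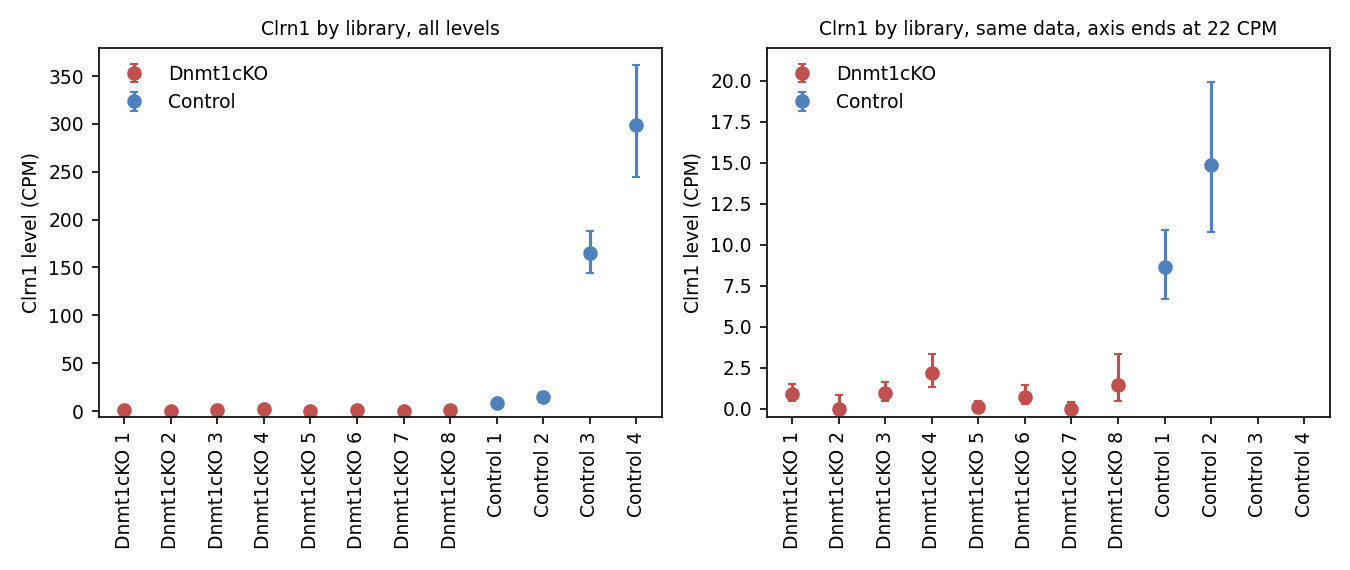
Clrn1 level in CPM in each library, with Dnmt1cKO in red and Control in blue. Points are levels and bars are exact Poisson 95% intervals; the right panel repeats the data on an axis that ends at 22 CPM, beyond which Control 3 (165.1 CPM) and the library labelled Control 4 (298.6 CPM) lie. All Dnmt1cKO points stand at 2.167 CPM or below and all Control points at 8.61 CPM or above.

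The size of the fold depended on the Control libraries kept. Clrn1 averaged 0.773 ± 0.763 CPM in Dnmt1cKO (SD, n = 8) and 122 ± 138 CPM in Control (SD, n = 4), a ratio of means of 158-fold. The fit of edgeR over all 12761 genes gave a log2 fold change of -7.26 ± 1.03 (SE), or 153-fold lower. When counts were pooled over each group first, 58 counts in Dnmt1cKO and 438 in Control gave 0.770 and 34.3 CPM, or 44.5-fold. In bulk tissue, fewer cells with the transcript and less transcript per cell cannot be told apart.

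Without the library labelled Control 4 the fitted fold was 74.7, and without Control 3 it was 133. Without both, Control averaged 11.7 ± 4.40 CPM (SD, n = 2) at the same scaling, and the refitted fold was 14.2. For the whole table, at an adjusted p under 0.05, the same choice mattered: over all 12 libraries 198 genes (1.55% of those tested) were called lower and 132 (1.03%) higher, and without those Controls 2 of 13990 (0.0143%) were lower and 45 (0.322%) higher. The balance turned on scaling, with 726 lower and 170 higher by the RLE factors of DESeq2, and 47 lower and 113 higher by plain totals. Of the 198 genes called lower, 164 had their highest level in the library labelled Control 4 and 34 in Control 3. Among all genes tested, 14.6% had it in the library labelled Control 4 and 18.2% in Control 3. Set by the letter-and-number code in the sample descriptions, whose meaning the labels do not state, Clrn1 stood at 0.925 CPM in Dnmt1cKO against 8.61 CPM in Control for code 4. For code 5 it stood at 2.167 CPM in Dnmt1cKO against 14.8 CPM in Control. Code 6 gave 0.088 CPM in Dnmt1cKO against 165.1 CPM in Control. The 3 Dnmt1cKO libraries of code 7 averaged 0.708 CPM, against 298.6 CPM in the library labelled Control 4. Dnmt1cKO was lower within each code, by 9.30-fold, 6.85-fold, 1882-fold and 421-fold, and the fold for code 6 rests on 1 count in Dnmt1cKO.

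Whether Clrn1 was the lowest gene by fitted fold depended on the model, the filter and the libraries. With all libraries it held rank 1 of 12761 in edgeR with any of the 3 scalings, rank 13 in limma-voom, rank 35 in DESeq2 and rank 36 in edgeR with no filter on low counts. It held rank 2 without Control 1 or without Control 2, rank 4 without Control 3, rank 8 without the library labelled Control 4 and rank 68 of 13990 with the last 2 of these both left out. The genes next to it in edgeR with all libraries were Rhbg, an ammonium transporter of epithelia, at a log2 fold change of -6.69, and Fgl1, a secreted liver protein, at -6.46. Rhbg stood at 1.26 CPM in Dnmt1cKO and 139 CPM in Control on average, and the groups overlapped for both genes, unlike for Clrn1.

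**Figure D3:**
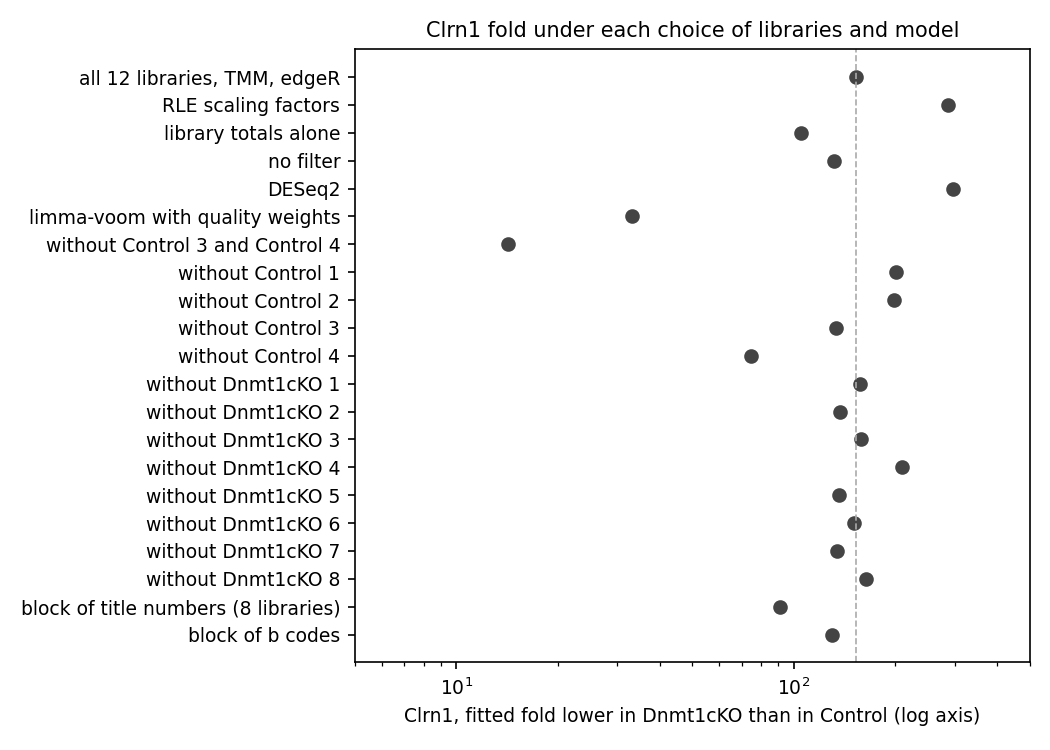
Fitted fold by which Clrn1 was lower in Dnmt1cKO than in Control, on a log axis, under each choice of scaling, filter, model and libraries. The dashed line marks 153-fold, from edgeR with all 12 libraries; the lowest point is the fit without Control 3 and the library labelled Control 4 (14.2-fold) and the highest is DESeq2 (296-fold).

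Genes that share the repeated stretch of Clrn1 were then listed, a choice made after the values of Clrn1 were seen. Of the 74 genes that carry it in the same direction, 34 were tested, and 4 of them were called lower and 0 higher in edgeR. That is 11.8% lower, against 1.54% among all genes tested except Clrn1, these 34 included. At an unadjusted p under 0.05, 12 were lower and 1 higher, against 1217 and 1045 of those 12760 genes, while DESeq2 called 9 of 33 lower and 0 higher and limma-voom called none in either direction. Over all genes DESeq2 called 6.76% lower and 3.39% higher, and limma-voom 0.196% lower and 0.0549% higher. Their median log2 fold change was -0.33, against 0.22 over all genes tested, and 55.9% of them had their highest level in Control 3 or the library labelled Control 4, against 32.8% of all genes. Of the 55 tested genes that carry it in the opposite direction, none was called in edgeR, and their median was 0.40. At an unadjusted p under 0.05, 4 were lower and 5 higher, shares close to those of the 12760 genes just given. DESeq2 called 2 lower and 1 higher, and limma-voom none. Over both directions together, edgeR called 4 of 89 tested genes lower (4.49%) and 0 higher, and their median was 0.08. The sources used here do not give the use of strand, so the split by direction cannot be tied to divided reads.

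The 4 genes called lower were Lpl, Tnfsf15, Mxd4 and Dbt, named after their values were seen. Lpl, the lipase that frees fatty acids from lipoproteins, stood at 8.03 ± 8.16 CPM in Dnmt1cKO (SD, n = 8) and 142 ± 149 CPM in Control (SD, n = 4), with a log2 fold change of -4.15 ± 0.82 (edgeR, Benjamini-Hochberg adjusted p = 0.00381). Its Control levels were 17.5, 58.0 and 351 CPM in Controls 1 to 3 and 142 CPM in the library labelled Control 4, against a highest Dnmt1cKO level of 24.2 CPM, so the groups overlapped. Tnfsf15, a cytokine of the tumour necrosis factor family, was 45.0-fold lower, and its 273 CPM in the library labelled Control 4 was far above the 17.1, 0 and 3.77 CPM of Controls 1 to 3. Mxd4, a partner of Max that opposes Myc, and Dbt, a subunit of the enzyme that breaks down branched-chain amino acids, were 3.95-fold and 3.90-fold lower, with their highest levels in the library labelled Control 4 (637 CPM) and in Control 3 (642 CPM). Of the 4, the groups overlapped in all but Mxd4. All 4 had fractions in 9 to 12 libraries, like Clrn1 in 9. Without Control 3 and the library labelled Control 4, edgeR called 0 of 36 lower and 0 higher (1 and 1 at an unadjusted p under 0.05), with a median of -0.17. In that fit 2 of the 13989 genes other than Clrn1, these 36 included, were called lower and 45 higher. Of the 13989, 309 and 974 had an unadjusted p under 0.05, and their median was 0.16, so a count of 0 is no result about the 36. Whether divided reads raised Clrn1 in these Controls was not tested.

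The other clarin genes gave no count. Clrn2 (chromosome 5) and Clrn3 (chromosome 7) were at 0 in all 12 libraries, which allows at most 0.040 CPM over Dnmt1cKO and 0.235 CPM over Control at 3 counts per group. Clrn1 was thus the only clarin gene with counts in these libraries at this depth. How much of its counts came from divided reads, or from cells other than epithelium, was not tested.

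A list of genes of Usher syndrome and the hair bundle is called Usher partners here. The 5 that could be tested had log2 fold changes of -1.02 to 5.97. All 9 genes reported here had a row and 5 passed the filter on low counts. Of these 5, edgeR called none in either direction. When p was left unadjusted, again under 0.05, 2 were higher and 0 lower. At that threshold 1045 of the 12760 tested genes other than Clrn1 were higher and 1217 lower. With 1.55% of all genes called lower and 1.03% higher, 0 of 5 is near the background and is no result about the list. DESeq2, which tested all 9, called 2 higher and 0 lower, beside 3.39% higher and 6.76% lower over all genes. In limma-voom 0 were called, beside 0.0549% higher and 0.196% lower over all genes. Myo7a, the myosin motor of the hair bundle, averaged 6.07 ± 6.09 CPM in Dnmt1cKO (SD, n = 8) and 10.1 ± 10.9 CPM in Control (SD, n = 4), with a log2 fold change of -0.77 ± 1.33. Its level was 13.5 and 23.9 CPM in Controls 1 and 2, 0 in Control 3 and, in the library labelled Control 4, 2.84 CPM, so it was lowest in the Controls in which Clrn1 was highest. Cib2, a calcium-binding protein, had a log2 fold change of -1.02 ± 1.24. It stood at 14.5, 23.6 and 0 CPM in Controls 1 to 3 and at 2.84 CPM, again 1 count, in the library labelled Control 4. Ush1c, which encodes the scaffold harmonin, was found in all 8 Dnmt1cKO libraries (0.540 to 19.1 CPM) and in Control 3 alone of the Controls (25.6 CPM).

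The adhesion receptor Gpr98 (now Adgrv1) and the scaffold whirlin, Whrn, pointed the other way without passing the test of edgeR. Gpr98 was found in all 8 Dnmt1cKO libraries, at 1.43 to 41.4 CPM, and in Control 1 alone of the Controls, at 3.69 CPM (log2 fold change 3.56 ± 1.43, edgeR, Benjamini-Hochberg adjusted p = 0.177). Whrn held 439 expected counts over Dnmt1cKO, in 7 of 8 libraries, and 1 over Control (adjusted p = 0.129 in edgeR with Benjamini-Hochberg adjustment). Cdh23 and Pcdh15, the cadherins of the tip link, and Ush1g, a scaffold, had counts in 1 Dnmt1cKO library each and in no Control. Pdzd7, a scaffold, averaged 0.678 CPM in Dnmt1cKO and 0.188 CPM in Control.

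Several markers that define hair cells were absent, and others on the same list were found. Of 17 listed genes 11 had a count in at least 1 library, and the transcription factors Pou4f3, Gfi1 and Barhl1, the channel component Lhfpl5, the calcium buffer Ocm and the acetylcholine receptor Chrna9 were at 0 in all 12 libraries. Atoh1, the factor that starts the hair cell fate, was found in 2 Dnmt1cKO libraries and 1 Control. Its level was 9.19 CPM in Dnmt1cKO 6, 0.104 CPM in Dnmt1cKO 7 and 20.2 CPM in Control 2. Espn averaged 15.3 CPM in Dnmt1cKO and 13.5 CPM in Control, and Slc17a8 2.77 and 2.66 CPM. Strc was found in 7 Dnmt1cKO libraries and in no Control, and was not called (log2 fold change 7.65). Myo15, Tmc1, Tmc2, Tmie, Otof and Loxhd1 averaged at most 1.58 CPM in either group. The summed level of the list was 93.2 to 219 CPM in Dnmt1cKO and 93.8 to 161 CPM in Control. Most of it came from Myo6, a myosin of many epithelia, with 122 CPM in Dnmt1cKO and 102 CPM in Control on average. Markers of neuroendocrine cells, all 8 detected, summed to 6.46 to 115 CPM in Dnmt1cKO and 5.69 to 162 CPM in Control, with the highest sum in Control 3 and the lowest in the library labelled Control 4. Markers of the Wolffian and Mullerian ducts, all 5 detected, summed to 25.4 to 179 CPM in Dnmt1cKO and 78.7 to 467 CPM in Control, and their 2 highest libraries, Control 3 with 467 CPM and the library labelled Control 4 with 264 CPM, were those in which Clrn1 was highest. Their part in the Clrn1 level was not tested.

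Of the genes around Clrn1 on chromosome 3, the 5 that could be tested had log2 fold changes of -0.67 to 1.86. The 9 reported here, among the nearest 5 per side with a row in the table, lay 120 to 323 kb away, and 5 of them passed the filter. None was called in either direction by edgeR, DESeq2 or limma-voom, and none had an unadjusted p under 0.05 in edgeR with all libraries. Beside 1.55% of all genes called lower and 1.03% higher, 0 of 5 is again near the background. DESeq2 called 6.76% of all genes lower and 3.39% higher, and limma-voom 0.196% lower and 0.0549% higher. Of the 12760 tested genes other than Clrn1, 1217 were lower and 1045 higher at an unadjusted p under 0.05 in edgeR. None of these counts of 0 is a result about the neighbours. Without Control 3 and the library labelled Control 4, 1 of 6 was lower at an unadjusted p under 0.05 and none was called. In that fit 309 of the 13989 genes other than Clrn1 were lower at that threshold, and 2 were called lower and 45 higher. Med12l, which encodes a subunit of the Mediator kinase module and is the closest of the 9, averaged 13.8 ± 7.05 CPM in Dnmt1cKO (SD, n = 8) and 21.2 ± 29.0 CPM in Control (SD, n = 4). It had no count in Control 3 or in the library labelled Control 4, where Clrn1 was highest. In these shallow libraries 3 counts amount to 2.26 and 8.53 CPM. Siah2, a ubiquitin ligase on the other side, had counts in Control 1 alone of the Controls (6.02 CPM) and stood at 0 to 21.5 CPM in Dnmt1cKO. Serp1, a protein of the endoplasmic reticulum, and Eif2a, a translation initiation factor, were found in all libraries, with log2 fold changes of -0.13 ± 0.40 and 0.0023 ± 0.61. Selt (now Selenot), a selenoprotein, had a log2 fold change of 0.41 ± 0.41. The remaining 4, Fam194a, Gpr171, P2ry14 and P2ry13, had a count in at most 2 libraries each.

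**Figure D4:**
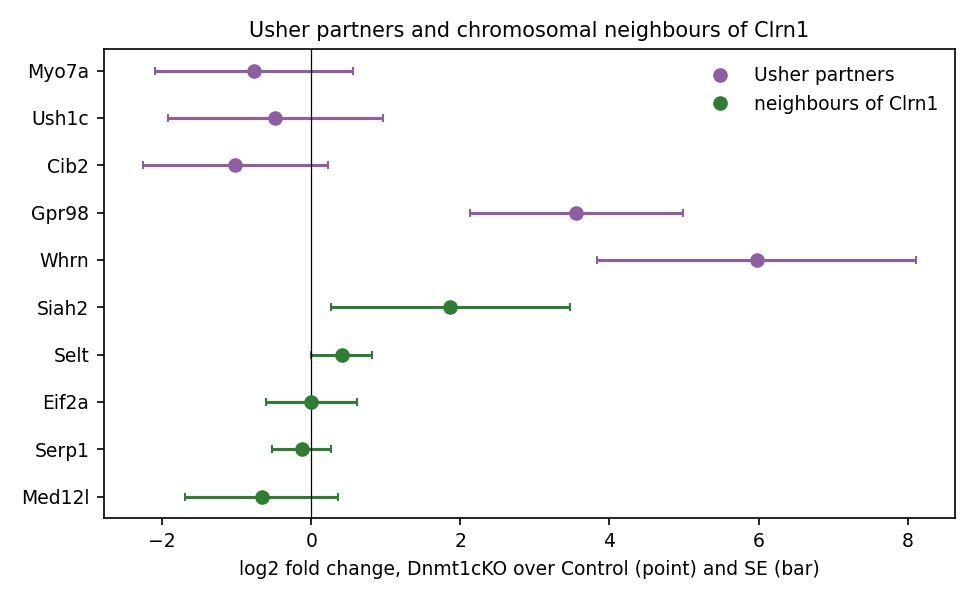
Log2 fold change of Dnmt1cKO over Control (points) with SE (bars) for the tested Usher partners (purple) and chromosomal neighbours (green) of Clrn1. Values run from -1.02 for Cib2 to 5.97 for Whrn, which rests on 1 Control count, and none reaches the -7.26 of Clrn1.

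The genes most like Clrn1 across libraries were sought by profile overlap, in which the CPM of each gene is turned into shares per library and the smaller share is summed over libraries. An overlap of 100% would be the same profile, and the median over the other 12760 tested genes was 11.4%. Over 12 libraries the closest were Bcmo1, which encodes the enzyme that splits beta-carotene, with 87.0%, Elavl3, a neuronal RNA-binding protein, with 86.8%, BC021785 with 85.8%, Prickle1, a planar polarity protein, with 83.3%, and Atp5k, a subunit of ATP synthase, with 82.8%. Each had its 2 highest levels in the library labelled Control 4 and in Control 3, and in each the groups overlapped. Bcmo1 stood at 0.2245 to 33.9 CPM in Dnmt1cKO, at 29.1, 43.8 and 338.5 CPM in Controls 1 to 3 and at 426.5 CPM in the library labelled Control 4. None of the 5 carried the repeated stretch of Clrn1 by the rule above, and Bcmo1 and BC021785 had fractions in all 12 libraries.

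Over the 10 libraries without Control 3 and the library labelled Control 4 the closest genes were others, and the median overlap was 39.1%. Pigr, the receptor that carries antibodies across epithelia, had an overlap of 87.9%, Gcm1, a transcription factor of placental trophoblast, 87.7%, Prss35, a serine protease, 87.4%, Rgs7bp, which anchors G-protein regulators, 86.5%, and Cdnf, a neurotrophic factor, 85.6%. Pigr stood at 0 to 3.82 CPM in Dnmt1cKO and at 16.1 and 21.9 CPM in Controls 1 and 2. Gcm1 stood at 0.521 to 3.51 CPM in Dnmt1cKO, at 12.5, 34.4 and 309 CPM in Controls 1 to 3, and had no count in the library labelled Control 4. All 5 genes had no count in that library, so none of them shared the profile of Clrn1 over all 12. These overlaps are descriptions over libraries that share depth and makeup, and the members of each set were chosen by them.

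**Figure D5:**
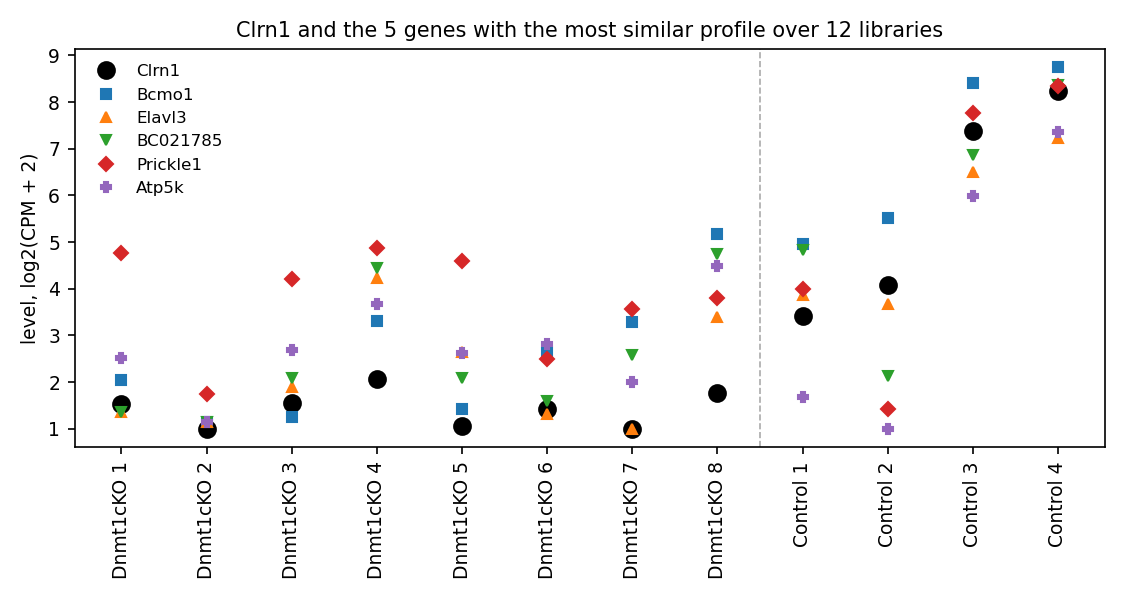
Level, as log2(CPM + 2), of Clrn1 (large black points) and of the 5 genes with the highest profile overlap (82.8% to 87.0%) in each library, Dnmt1cKO left of the dashed line and Control right of it. All 6 genes are highest in Control 3 and the library labelled Control 4, and Clrn1 is the one whose Control points all lie above its Dnmt1cKO points.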

How the data were processed

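The authors deposited RSEM expected counts for 20308 gene symbols in 12 libraries, which are estimated counts with reads divided between genes that they fit equally. RSEM 1.2.3, Bowtie 0.12.9, bcl2fastq 2.17.1.14 and build mm10 are named per the submitters' processing notes. The sources used here do not give the annotation or the use of strand. Expected counts were rounded. Dnmt1cKO was compared with Control by the quasi-likelihood test of edgeR 4.0.16 (R 4.3.3), with TMM factors, robust dispersion and filterByExpr (minimum count 10, minimum total 15). Benjamini-Hochberg adjustment ran over 12761 genes, with calls under 0.05. The SE of a log2 fold change is its size over the square root of the F statistic. CPM are counts per 1000000 of the TMM-scaled total, and intervals are exact Poisson at 95%. Alternatives used DESeq2 1.42.0 and limma 3.58.1. Transcripts of GENCODE M21 were searched with BLAST 2.17.0 (word size 16, E-value up to 1e-05). Fits were tested on simulated data. Clrn1 and the gene lists were chosen with earlier results of these data known. Named genes were the clarin genes, Dnmt1, the Usher partners, the 5 nearest neighbours per side and the 5 highest profile overlaps; 1 Usher partner and 1 neighbour are not reported here, and counts leave them out. The labels do not say that every library is a separate pool of embryos, so a p-value reflects only how these libraries vary, which may be technical. No 2 libraries of a group matched within counting noise (lowest chi-square per degree of freedom 28.1).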

Additional observations from a re-analysis of the deposited data

Results flagged for a closer look

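Among 12 genes checked in each group (24 checks), 8 times the highest library stood far from its nearest neighbour by Dixon's criterion at the 95% level. Chance gives about 1 such case in 20 for normally distributed values, which CPM of low counts need not be, so the rate is only a rough guide here. It does not apply at all to 4 of these cases, in which the other 3 Controls are at 0 and any count passes. In Dnmt1cKO, Ush1c stood at 19.1 CPM in Dnmt1cKO 2 (next highest 6.42 CPM), Whrn at 31.4 CPM in the same library (next 11.4 CPM), Cib2 at 18.3 CPM in Dnmt1cKO 8 (next 6.46 CPM) and Selt at 409.9 CPM in Dnmt1cKO 8 (next 299.97 CPM). In Control, Ush1c stood at 25.6 CPM in Control 3 and at 0 in the others. Gpr98 at 3.69 CPM and Siah2 at 6.02 CPM were found in Control 1 alone of the Controls, and Whrn at 0.337 CPM in Control 2 alone. Clrn1 itself met this criterion in neither group.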

How the results depend on the processing

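Clrn1 stayed lower in Dnmt1cKO under every alternative run. Its log2 fold change of -7.26 was -5.05 in limma-voom with quality weights and -3.83 without Control 3 and the library labelled Control 4, where the ratio of mean CPM was 14.4-fold rather than 158-fold. Leaving out 1 library gave -7.71 to -6.22 and ratios of 76.3 to 213. The gap between the lowest Control and the highest Dnmt1cKO library, 6.44 CPM, was 6.85 CPM with library totals alone. It fell to 3.68 CPM when all libraries were thinned at random to the shallowest total. That thinning was drawn once, and at that depth the gap rests on few counts. The 198 genes called lower became 726 with RLE factors, 47 with library totals alone, 1029 in DESeq2, 25 in limma-voom and 2 without both Controls, and 36 (without the library labelled Control 4) to 494 (without Control 1) when 1 library was left out. The 132 called higher became 515 in DESeq2, 7 in limma-voom, 45 without both Controls and 60 to 657 when 1 library was left out. The median log2 fold change of all genes tested was 0.22, against 0.07 by RLE scaling and 0.38 by totals alone. Dnmt1 was not called under any alternative, with log2 fold changes of -1.60 to -0.84 when 1 library was left out (edgeR, Benjamini-Hochberg adjusted p = 0.284 with all libraries and 0.0815 to 0.946 over all alternatives). With the title number as a replicate block over 8 libraries, Clrn1 was at -6.51 (rank 4), with 29 genes lower and 21 higher. With the code as a block it was at -7.02 with 72 genes lower and 135 higher. The deviations of libraries with the same title number had an r of -0.05 to 0.06 over genes, and those with the same code -0.05 to 0.07. Counting noise in the shallow libraries lowers such an r, so these values cannot show whether libraries were paired. The 4 lower genes of 34 tested with the stretch on the same strand became 0 of 36 without both Controls, where 0.0143% of all genes were lower, and 6 of 55 (10.9%, against 11.8%) at 85% identity, alternatives chosen after seeing the data. Clrn3 gave no value under any alternative, having no count. Where changes moved, the cause was not tested. In the shallowest library 3 counts amount to 8.53 CPM, so low levels cannot be shown there.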
